A study of Mus musculus with 4 samples.

Results

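The genes described here are 37 enzymes, carriers and regulators of fatty acid and triglyceride (TG) synthesis, out of 23462 genes with a probe on the arrays. They were listed by name, and a probe was taken for a gene when its transcript accession belonged to that gene in RefSeq. All 37 had at least 1 probe. The list holds 4 transcription factors, 9 genes of acetyl-CoA supply and fatty acid synthesis, 4 elongases, 4 desaturases, 4 acyl-CoA synthetases, 8 genes of the glycerol backbone and its acylation, and 4 acyltransferases that close the path to TG. It was drawn up with earlier results of these arrays known.

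Liver RNA of male mice of C57BL/6 background, 24 weeks old, was measured on 4 one-colour Agilent arrays. The mice were Lpiat1 F/F mice (F/F), which carry the floxed allele without Cre, and liver-specific knockouts of genotype Alb-Cre; Lpiat1 F/F (LKO), fed chow (CE2) or a high fat diet (HFD, HFD-60) for 18 weeks from 6 weeks of age. Albumin-Cre acts in hepatocytes, so the other cells of the LKO liver keep the gene, and all mice carry the floxed allele. Each of the 4 conditions had 1 array, so no difference below has a replicate check, none was tested, and differences between mice are not measured. How many mice an array stands for was not given in the sources used here. Lpiat1 (listed as Mboat7) encodes the enzyme that puts arachidonic acid into phosphatidylinositol. Wherever 4 signals follow each other below, the first pair is F/F and LKO on chow and the second pair is F/F and LKO on HFD. Its single probe read 1102, 861, 1181 and 1100, so that LKO minus F/F was -0.30 (log2) on chow and -0.27 with HFD. Whether that probe lies inside the deleted part was not given, so it is no check of the genotype labels.

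Values are the signal of the brightest probe of a gene and, for differences, log2 of that signal after the 75th percentile of each array was subtracted. That percentile was 222 and 213 on the chow arrays (F/F and LKO) and 263 and 296 on the HFD arrays, so an equal signal on chow and HFD gives a difference below 0. The share of spots well above background ran from 53.0% to 57.0% over the arrays, and no spot was saturated. For each of the 37 genes the brightest probe was well above background on all 4 arrays, so every difference given for them was measured. Where a probe was spotted repeatedly on an array, the difference of 2 spots had an SD of 0.089 (log2). Different probes of one gene scattered more. The SD between the differences of the brightest and the second brightest probe was 0.26 for LKO minus F/F on chow, 0.30 for LKO minus F/F on HFD, 0.37 for HFD minus chow in F/F and 0.41 for HFD minus chow in LKO. A difference larger than that SD is called larger than the probe spread. Over the 25 genes of the list with 2 measured probes, the SDs were 0.45, 0.22, 0.36 and 0.21 in the same order. The limits used are those over all genes. The 6 hepatocyte markers were bright on all arrays (Alb, albumin, between 221091 and 231569).

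Hepatocytes make fatty acids from citrate: ATP citrate lyase and acetyl-CoA carboxylase supply malonyl-CoA, fatty acid synthase builds palmitate, elongases lengthen it and desaturases add double bonds. Acyl-CoA synthetases activate fatty acids, and acyltransferases place them on glycerol-3-phosphate in turn until diacylglycerol becomes TG. A second entry, through monoacylglycerol acyltransferases, is strong in the gut and weak in normal mouse liver. Transcription of the path is driven by SREBP1c (from Srebf1) after insulin, by ChREBP (Mlxipl) after carbohydrate and by the liver X receptors (Nr1h3 and Nr1h2), which sense oxysterols.

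The deposited files hold no probe sequences. Printed instead are the 250 bases before the start of 4 genes, from the promoter table of RefSeq (build GRCm38.p6). They run 5′ to 3′ on the strand of the gene. Whether the factors above act in these windows was not measured. Mogat1 and Fads2 differed at least 2-fold between arrays, Elovl5 lay just under that limit and Fasn is the synthase itself. Capitals mark CCAAT, the site of NF-Y (ATTGG on the other strand), and CACGTG, the E-box. The windows are chr1:78510810-78511059 (plus strand) for Mogat1, chr19:10101504-10101753 (minus strand) for Fads2, chr9:77917115-77917364 (plus strand) for Elovl5 and chr11:120824548-120824797 (minus strand) for Fasn.
Mogat1: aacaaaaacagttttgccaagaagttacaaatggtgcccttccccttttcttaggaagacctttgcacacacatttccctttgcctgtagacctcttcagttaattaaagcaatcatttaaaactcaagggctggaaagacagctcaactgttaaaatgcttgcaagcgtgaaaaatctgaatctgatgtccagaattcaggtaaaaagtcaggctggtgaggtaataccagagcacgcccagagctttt
Fads2: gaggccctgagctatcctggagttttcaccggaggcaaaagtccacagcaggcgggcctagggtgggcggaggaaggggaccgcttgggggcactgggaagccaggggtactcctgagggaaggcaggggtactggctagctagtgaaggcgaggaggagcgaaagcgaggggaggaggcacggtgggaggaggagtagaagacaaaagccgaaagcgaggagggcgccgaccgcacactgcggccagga
Elovl5: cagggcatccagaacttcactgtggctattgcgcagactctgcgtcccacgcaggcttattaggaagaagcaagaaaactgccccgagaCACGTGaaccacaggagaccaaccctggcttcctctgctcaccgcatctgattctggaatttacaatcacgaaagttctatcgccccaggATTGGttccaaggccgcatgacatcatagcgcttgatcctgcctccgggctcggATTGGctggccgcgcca
Fasn: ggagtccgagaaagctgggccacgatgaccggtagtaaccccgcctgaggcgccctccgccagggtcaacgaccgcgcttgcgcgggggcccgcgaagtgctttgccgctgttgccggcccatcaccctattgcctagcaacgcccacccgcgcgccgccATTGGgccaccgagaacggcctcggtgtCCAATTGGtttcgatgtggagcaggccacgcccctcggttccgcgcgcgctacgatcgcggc
The stretches before Mogat1 and Fads2 held none of the letters searched for. The stretch before Elovl5 held 1 CACGTG and a pair of CCAAT, both on the other strand, and that before Fasn held CCAAT on both strands, close to the start.

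The promoter table held 30 of the 37 genes, with 43 starts. CCAAT, on either strand, stood before 16 of these 30 genes (53.3%) and before 37.5% of all 27025 genes of the table. Counted by start, the shares were 39.5% of the 43 starts and 33.8% of all 32851. CACGTG stood before 4 (Elovl5, Lpin2, Mlxipl and Slc25a1, 13.3% against 6.86% of all genes), and the sterol regulatory element TCACNCCAC before 2 (Acsl1 and Mlxipl, 6.67% against 1.22%). A pair of CACGTG set 5 bases apart, the form of the carbohydrate response element, stood before 0 of the genes of the whole table. This exact pattern matched nothing, so it cannot tell the listed genes from others. AGGTCA repeated after 4 bases, the form of the LXR element, stood before 0 of the 30 genes and 0.0148% of all. These are counts of letters in a short window, and the control regions of several of these genes lie outside it.

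On chow, the 37 genes lay mostly higher on the LKO array than on the F/F array. The difference was above 0 for 28 and below 0 for 9, with a median of 0.17 (log2), against 50.7% above 0 and a median of 0.00 over the 14981 genes with a value. One gene, Mogat1, was at least 2-fold higher and 0 were at least 2-fold lower, where all genes gave 1.11% higher and 1.03% lower. With normexp background correction, a model of signal over background, Mogat1 gave 0.94 and 0 of the 37 passed 2-fold. All genes then gave 0.135% higher and 0.128% lower. Beyond the probe spread, 14 of the 37 (37.8%) were higher and 1 was lower, against 12.9% and 12.5% of all genes. That limit was 0.26, below the SD of 0.45 between 2 probes of the listed genes in this comparison. Among the 14, Acacb and Fads1 had a second probe below 0. All 4 desaturases (median 0.52), all 4 elongases (0.23) and all 4 acyltransferases closing the path (0.44) lay above 0. Acetyl-CoA and fatty acid synthesis genes had a median of 0.26. Transcription factors (-0.08) and the genes of the glycerol backbone (0.01) stood near 0. Between 26 and 30 of the 37 were above 0 under the other ways of scaling and combining probes.

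On HFD, the comparison of LKO with F/F showed no such tilt. Of the 37 genes, 16 were above 0 and 21 below, and their median was -0.07, beside -0.03 over 15528 genes with a value. One gene, Scd2, was at least 2-fold higher and 0 were lower (all genes, 2.36% and 1.91%). Larger than the probe spread were 9 differences upwards and 9 downwards, which is 24.3% each, against 17.6% and 17.7% of all genes. Of the 7 groups, 3 had one sign throughout. All 4 desaturases were above 0 (median 0.29), all 4 transcription factors below 0 (median -0.24) and all 8 genes of the glycerol backbone and its acylation below 0 (median -0.16, with Agpat1 at -0.00), where 45.9% of all genes were above 0. Beyond the probe spread, 2 of these 8 were lower, Gpd1 and Agpat2, and 2 of the desaturases were higher, Scd2 and Fads2. Of the hepatocyte markers 5 of 6 were below 0 as well, with a median of -0.16 (Tat -0.57, Ttr -0.43), and their part in these values was not tested. The other 4 groups were mixed: the fatty acid synthesis group had 6 genes above 0 and 3 below, the elongases 2 and 2, the acyl-CoA synthetases 3 and 1, and the acyltransferases closing the path 1 and 3. Under other settings, 1 of the 8 backbone genes and 1 of the 4 factors moved above 0 at most.

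HFD against chow gave the widest differences. In F/F, 29 of the 37 genes were higher on HFD and 8 lower, with a median of 0.24 against -0.02 over 15358 genes. Mogat1, Mogat2 and Fads2, 3 genes, were at least 2-fold higher and 0 were lower (all genes, 5.21% and 2.94%), and beyond the probe spread 17 were higher (45.9%) and 2 lower, against 21.6% and 19.1% of all genes. In LKO, 19 were higher and 18 lower, with a median of 0.01 against -0.07 over 15242 genes. Scd2, Mogat2 and Mogat1, again 3, were at least 2-fold higher and 0 lower (all genes, 8.12% and 4.07%). With normexp background correction, Mogat2 was under 2-fold in both genotypes (0.59 in F/F and 0.61 in LKO) and Mogat1 in LKO (0.90). Beyond the probe spread, 11 were higher (29.7%) and 5 lower, where all genes gave 20.8% and 20.7%. The level of this comparison depends on scaling. All 6 hepatocyte markers were lower on HFD (median -0.42 in F/F and -0.61 in LKO), and the number of the 37 above 0 ranged from 25 to 32 in F/F and from 18 to 28 in LKO. The comparisons share arrays: the F/F HFD array enters both the genotype difference on HFD and the diet difference in F/F.

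**Figure D1:**
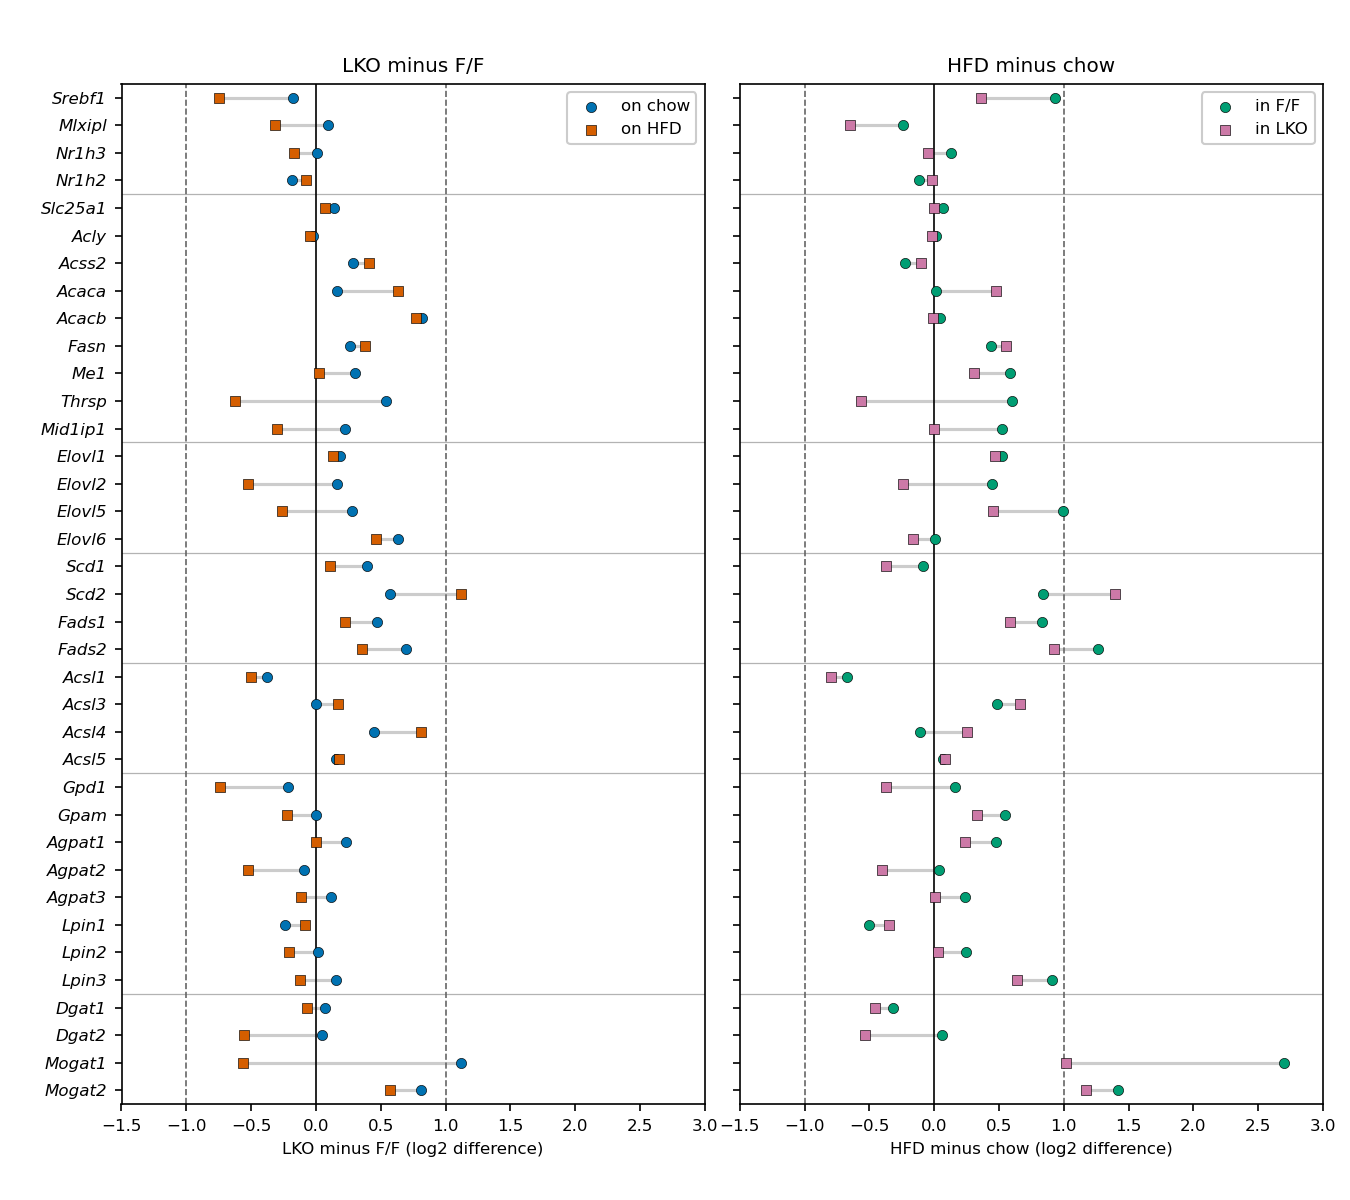
Log2 differences of the 37 genes in the order of the path, LKO minus F/F on the left (circles on chow, squares on HFD) and HFD minus chow on the right (circles in F/F, squares in LKO). Dashed lines mark 2-fold and horizontal lines part the groups. Mogat1 reaches 2.70 in F/F, Scd2 passes 2-fold in LKO and on HFD, and no gene passes the left dashed line.

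Srebf1, which encodes the SREBP1 proteins, read 6161, 5254, 13989 and 9339. The F/F array on HFD was the highest. HFD minus chow was 0.94 in F/F and 0.36 in LKO, and LKO minus F/F was -0.17 on chow and -0.75 on HFD. One probe measured the gene, and whether it tells the SREBP1a and SREBP1c transcripts apart was not given. Mlxipl read 7187, 7382, 7228 and 6519, with the largest difference, -0.65, between the diets in LKO. Nr1h3 (LXRα), at 6535, 6309, 8487 and 8462, differed by at most 0.17 in size in any comparison. Nr1h2 (LXRβ) stayed within 0.18 in size by its brightest probe, at 2547, 2160, 2787 and 2967. A dim second probe gave -0.57 and 0.08 between genotypes on chow and HFD, and -0.40 and 0.25 between diets in F/F and LKO. Its level thus depends on the probe. By the brightest probes of the 4 factors, Srebf1 differed beyond the probe spread for diet in F/F and for genotype on HFD. Mlxipl did so for diet in LKO and, at -0.32, for genotype on HFD, where other settings gave -0.34 to -0.23.

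Fasn, fatty acid synthase, read 18344, 21203, 29445 and 43098. It was higher in LKO on both diets (0.26 and 0.38) and higher on HFD in both genotypes (0.44 in F/F and 0.55 in LKO), with the same signs in every setting tried. Acaca, the cytosolic acetyl-CoA carboxylase, read 3308, 3569, 3964 and 6890. The LKO HFD array stood apart from the other three. LKO minus F/F was 0.17 on chow and 0.63 on HFD, and all 4 of its probes were above 0 in both. Acacb, the mitochondrial form that restrains fatty acid oxidation, gave 0.82 and 0.77 by its brightest probe (2407, 4091, 2943 and 5650), but -0.17 and -0.07 by its second, so its direction is not settled. Acly and Slc25a1, which supply cytosolic acetyl-CoA from citrate, differed by at most 0.04 and 0.14 in size by their brightest probes. A dim second Acly probe gave 0.23 between genotypes on chow and -0.34 between diets in LKO, both within the probe spread. The second Slc25a1 probe reached 0.20, between diets in F/F. Acss2, which makes acetyl-CoA from acetate, was higher in LKO by 0.29 on chow and 0.41 on HFD. Me1, the malic enzyme that yields NADPH, was higher on HFD in F/F (0.59, and 0.73 by its second probe) and higher in LKO on chow (0.30 and 0.62). For diet in LKO it gave 0.31 and 0.08, within the probe spread, and between genotypes on HFD 0.02 and -0.04.

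Thrsp (Spot 14), a partner of acetyl-CoA carboxylase, read 25184, 35314, 45403 and 33086. It was higher in LKO on chow (0.54) and lower in LKO on HFD (-0.62), higher on HFD in F/F (0.60) and lower on HFD in LKO (-0.56). The second probe gave 0.51, -0.71, 0.43 and -0.79. Mid1ip1, its close relative, gave 0.23 and -0.30 between genotypes on chow and HFD.

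Among the elongases, Elovl6, which carries palmitate to stearate, read 2395, 3574, 2852 and 4418. Both LKO arrays were above both F/F arrays, by 0.63 on chow and 0.46 on HFD, while HFD minus chow was 0.00 in F/F and -0.17 in LKO. Elovl5, which lengthens polyunsaturated fatty acids, followed diet, at 8701 and 10138 on chow and 20556 and 19272 on HFD. HFD minus chow was 0.99 in F/F, just under 2-fold, and 0.46 in LKO. Its second probe gave 1.09 and 0.35. Elovl1 was higher on HFD by 0.52 in F/F and 0.47 in LKO. Elovl2 gave 0.45 and -0.24.

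All 4 desaturases were higher in LKO on both diets by their brightest probe, on HFD beyond the probe spread only for Scd2 and Fads2. Scd1, the main stearoyl-CoA desaturase of liver, read 39213, 49576, 43762 and 53070. It was higher in LKO by 0.39 on chow and 0.11 on HFD. For diet it gave -0.09 in F/F and -0.37 in LKO, and these signs turned in some settings (up to 0.10 and 0.01). Scd2, an isoform known mostly from brain and other tissues than liver, read 98.4, 140, 209 and 511. Every step was upwards: 0.57 for genotype on chow, 1.12 on HFD, 0.84 for diet in F/F and 1.39 in LKO. Its highest value fell on the array where the macrophage markers were highest as well, and so did those of Fads1, Fads2 and other listed genes. Fads2, the delta-6 desaturase of polyunsaturated fatty acid synthesis, read 2549, 3965, 7252 and 10421. HFD minus chow was 1.26 in F/F and 0.92 in LKO, LKO minus F/F was 0.69 and 0.36, and the second probe gave 1.24, 0.85, 0.74 and 0.34. Fads1, its delta-5 partner, gave 0.83 and 0.59 for diet. Its brightest probe was 0.47 higher in LKO on chow. A dim second probe gave -1.01 there and -0.40 for diet in F/F, so both values depend on the probe. Cross-hybridisation among the Scd genes could not be looked at without probe sequences.

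**Figure D2:**
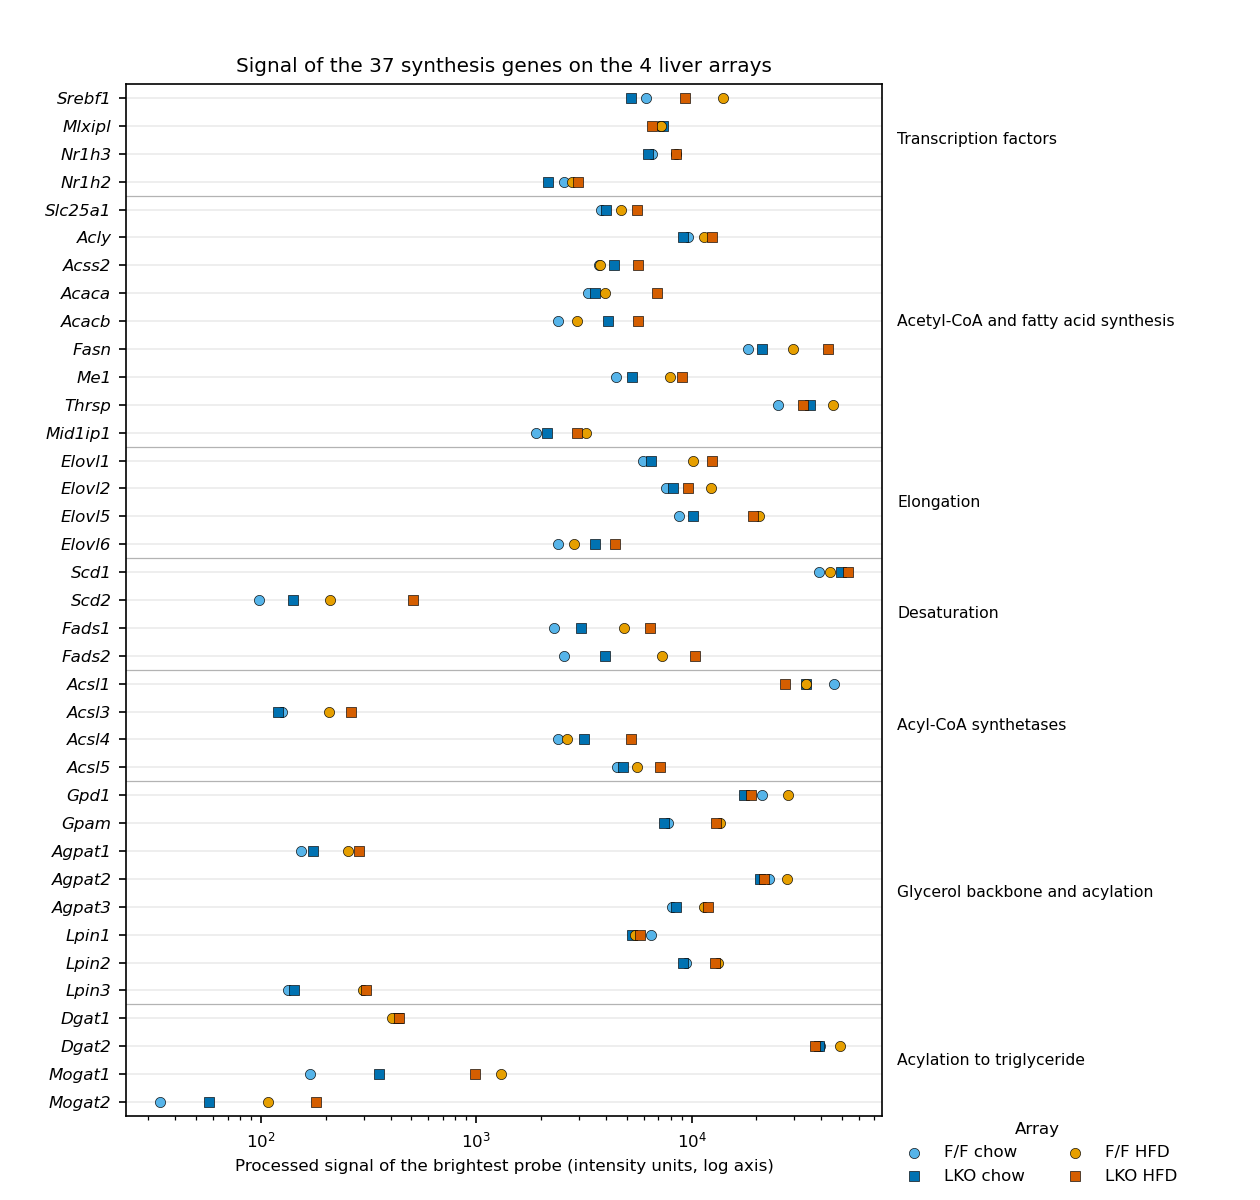
Processed signal of the brightest probe of each of the 37 genes (log axis) on the 4 arrays, circles for F/F and squares for LKO, blue for chow and orange for HFD. Scd2 runs from 98.4 to 511 and Mogat1 from 169 to 1298. Signals of different probes are not on one scale, so the plot is read along each line and not down the page.

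Of the acyl-CoA synthetases, Acsl1, the main form in liver, was lower in LKO and lower on HFD, at 45687, 33865, 34070 and 27020. The differences were -0.38 on chow and -0.50 on HFD for genotype, and -0.67 in F/F and -0.80 in LKO for diet. Its second probe gave -1.07 for diet in F/F. Acsl4, which prefers arachidonic acid, went the other way between genotypes, at 2408, 3157, 2649 and 5216, by 0.45 on chow and 0.81 on HFD. All 3 of its probes were higher in LKO on both diets, the dimmest by 1.05 on HFD. Acsl3 was higher on HFD (0.49 in F/F and 0.66 in LKO). Acsl5 differed by at most 0.18 in size.

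Gpam, the mitochondrial acyltransferase of the first step on glycerol-3-phosphate, read 7779, 7473, 13495 and 13005. It was higher on HFD in F/F (0.55) and gave 0.33 in LKO, within the probe spread. Between genotypes it gave -0.00 on chow and -0.22 on HFD, while a dim second probe gave -0.47 and -0.34, so its level between genotypes is not settled. Gpd1, which makes glycerol-3-phosphate, read 21180, 17578, 28079 and 18859 and gave -0.74 for LKO minus F/F on HFD, or -0.47 by its second probe. Agpat2, the main lysophosphatidic acid acyltransferase of liver, was lower in LKO on HFD (-0.53) and close to level on chow (-0.09). Agpat3 gave between -0.11 and 0.24 over the 4 comparisons. Agpat1 was higher on HFD by 0.48 in F/F, but -0.72 by a dim second probe. Of the lipins, which turn phosphatidic acid into diacylglycerol, Lpin1 was lower on HFD (-0.50 in F/F and -0.35 in LKO), Lpin2 stood between -0.20 and 0.25, and Lpin3 was higher on HFD (0.91 and 0.64).

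The DGAT enzymes turn diacylglycerol into TG, and the MOGAT enzymes make diacylglycerol from monoacylglycerol. Dgat2, a diacylglycerol acyltransferase tied to newly made fatty acids, read 39312, 39005, 48709 and 37259. It was level on chow (0.04) and lower in LKO on HFD (-0.55). Dgat1 read 427, 431, 407 and 436 and gave 0.07 and -0.07 between genotypes, and -0.32 and -0.46 between diets. Mogat1, a monoacylglycerol acyltransferase, read 169, 353, 1298 and 986. The F/F chow array was the lowest, and both chow arrays were below both HFD arrays. HFD minus chow was 2.70 in F/F, a 6.48-fold difference, and 1.01 in LKO, and LKO minus F/F was 1.12 on chow and -0.56 on HFD. The second, dimmer probe gave 3.14, 0.64, 2.09 and -0.41, with the same signs. Mogat2 was dim, at 34.1, 57.6, 108 and 180, and was higher on HFD (1.42 in F/F and 1.17 in LKO) and in LKO (0.81 on chow and 0.57 on HFD). With normexp background correction the genotype differences of Mogat2 fell to 0.34 on chow and 0.36 on HFD.

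**Figure D3:**
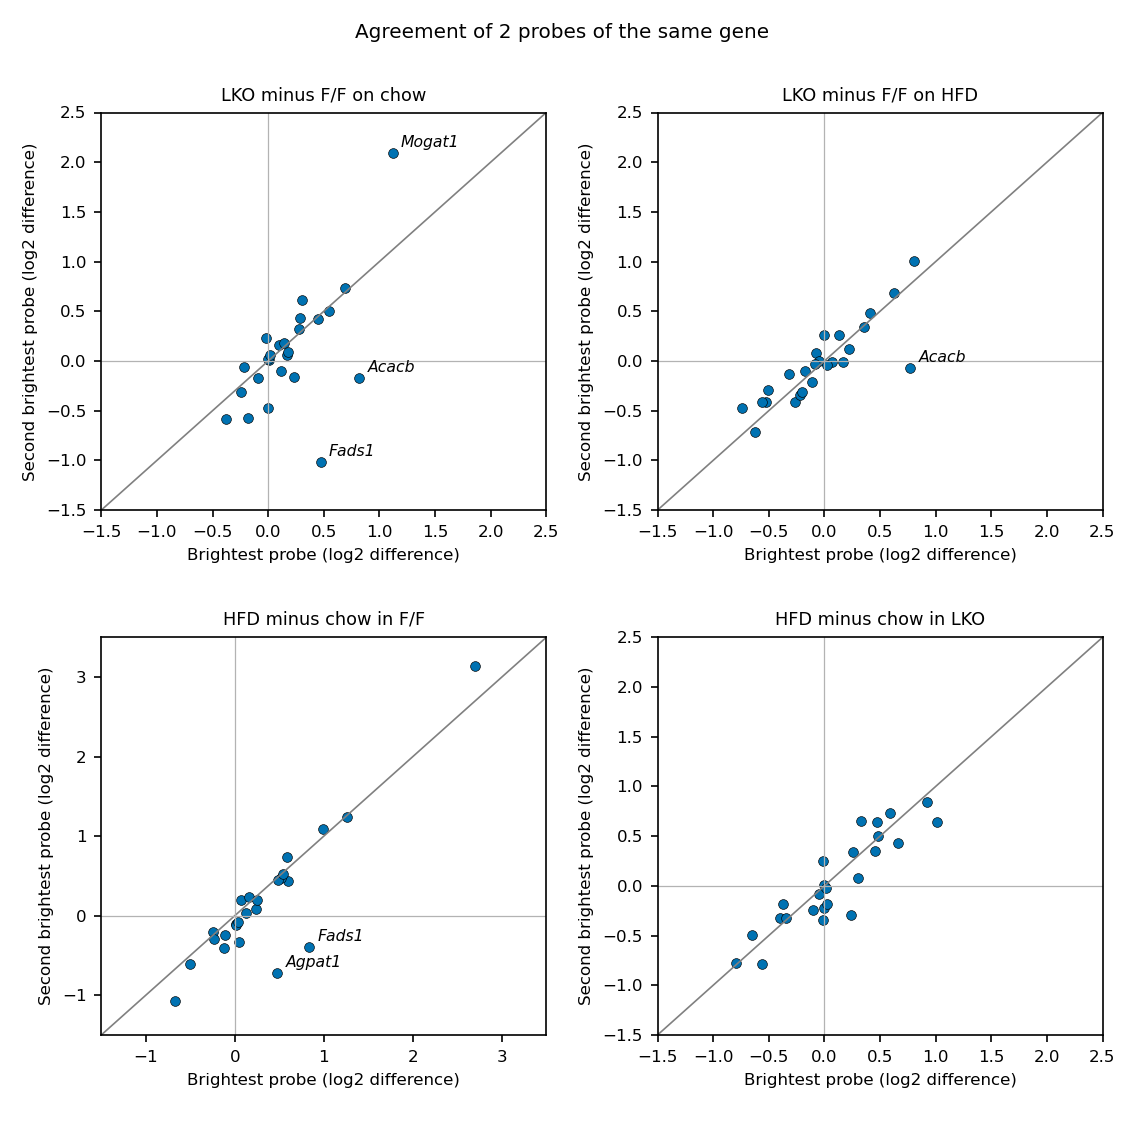
Log2 difference by the brightest probe (horizontal axis) against the second brightest (vertical axis) for the 25 genes of the list in which both were measured, 1 panel per comparison, with the line of equality. Signs matched in 19, 19, 19 and 20 of 25 genes. Genes whose probes differ by more than 0.6 are named, among them Acacb and Fads1.

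The genotype difference could be set side by side for both diets, since these comparisons share no array. LKO minus F/F was lower on HFD than on chow for 28 of the 37 genes and higher for 9, with a median of -0.22 for the change, beside -0.05 over 14619 genes, of which 8148 were lower. Mogat1 and Thrsp differed in sign between diets with both sizes over the probe spread, 2 of 37 genes against 5.09% of all. After these, the largest shifts downwards were those of Elovl2 (-0.69), Dgat2 (-0.60) and Srebf1 (-0.58). Upwards, Scd2 (0.55) and Acaca (0.46) shifted most.

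**Figure D4:**
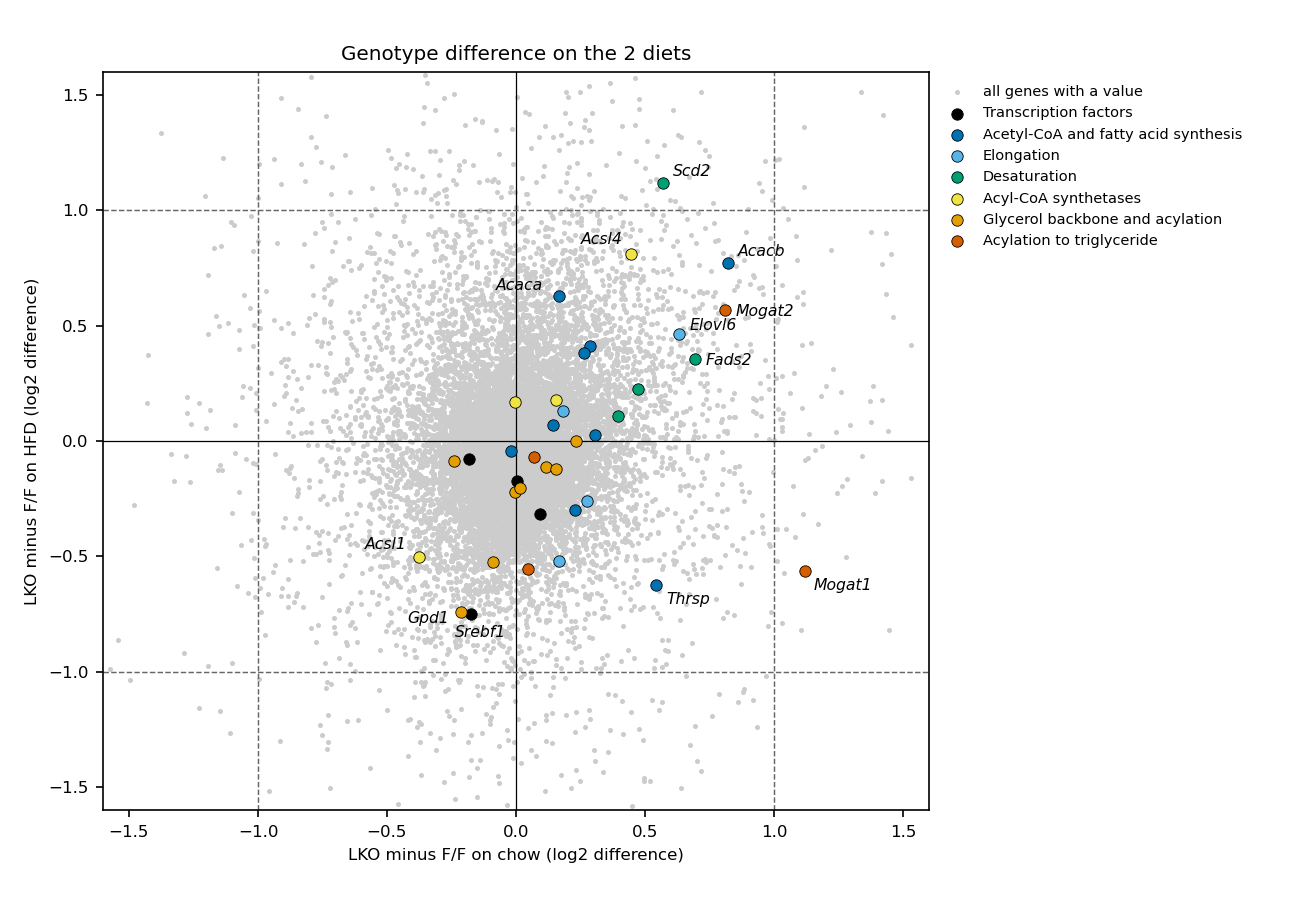
LKO minus F/F on chow (horizontal axis) against the same on HFD (vertical axis), log2, with the 37 genes coloured by step and all genes in grey; dashed lines mark 2-fold, and 162 of 14619 genes lie outside the axes. Scd2 lies above the upper line, Mogat1 to the right of the right one and below 0, and most of the 37 lie to the right of 0.

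The genes around the path were read from lists fixed beside that of the 37. Of 18 genes listed for control of the lipogenic factors, 2 were at least 2-fold higher in LKO on chow, where all genes gave 1.11%, 0 differed 2-fold between genotypes on HFD, 2 were at least 2-fold higher on HFD in F/F and 0 differed 2-fold in LKO. Both times these were Pparg and Cidec. Pparg, a nuclear receptor of fat storage, read 815, 1659, 2619 and 2207 (1.08 and -0.41 between genotypes on chow and HFD, 1.44 and -0.06 between diets in F/F and LKO). Cidec, a lipid droplet protein that Pparg induces and that does not itself control these factors, read 2533, 5913, 14847 and 11759 (1.28, -0.50, 2.30 and 0.52). Both were lowest on F/F chow and highest on F/F HFD, as was Mogat1. Insig1, which holds SREBP in the endoplasmic reticulum, gave 0.05 and -0.43 between genotypes and 0.59 and 0.11 between diets. Insig2 gave -0.55, 0.49, -0.72 and 0.32.

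Of 19 other targets of SREBP1c, ChREBP and LXR, 1 was at least 2-fold higher and 1 lower in LKO on chow, and 0 on HFD. Pltp, the phospholipid transfer protein, was higher in LKO on chow (1.43, from 540 to 1402) and on HFD (0.90, from 813 to 1706). Cyp7a1, the first enzyme of bile acid synthesis, was lower in LKO, at -1.57 on chow (1274 in F/F and 411 in LKO) and -0.99 on HFD. Between diets 1 was at least 2-fold higher in each genotype: Rgs16, a ChREBP target, by 1.58 in F/F, and Abcg1, a sterol transporter, by 1.37 in LKO. Pklr, liver pyruvate kinase, gave 0.58 and 0.07 between genotypes. Pnpla3 was dim (between 5.09 and 22.3, and below the background limit in F/F on chow) and 0.87 higher in LKO on HFD.

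Of 23 other fatty acid synthesis enzymes with a value, 0 differed 2-fold between genotypes on chow and 1 was higher in LKO on HFD. This was Elovl7, an elongase of saturated chains, at 15.0, 14.7, 49.4 and 229 (2.04). Hacd4, a dehydratase of the same cycle, was 1.47 higher on HFD in LKO and 0.85 in F/F. Acss1, a mitochondrial acetyl-CoA synthetase, was higher on HFD by 1.37 in F/F and 1.72 in LKO, and Elovl3, an elongase of very long saturated chains, was lower on HFD (-1.60 and -1.24). Of the other glycerolipid enzymes, 1 passed 2-fold, Acsl6, with a bound of -1.03 for HFD minus chow in F/F. Among the 12 genes of the fasting and feeding response, Pdk4, which spares pyruvate in fasting, was at 1709, 821, 428 and 878 (LKO was at 0.499 of F/F on chow, after scaling, the 1 gene of the list past 2-fold there; LKO minus F/F was 0.87 on HFD, and HFD minus chow was -2.24 in F/F and -0.37 in LKO). Irs2 gave -1.58 and -0.97 for diet in F/F and LKO, and G6pc, glucose-6-phosphatase, 0.69 between genotypes on chow and -1.24 on HFD, and 1.06 for diet in F/F and -0.86 in LKO.

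Markers of other cells moved with some of these values. All 10 monocyte and macrophage markers were well above background on every array, and all 10 were higher in LKO than F/F on HFD (median 0.60). Their summed level, in multiples of the 75th percentile, was 51.9 and 53.4 on chow (F/F and LKO) and 72.5 and 101.8 on HFD. Trem2 read 36.7, 54.3, 353 and 1871, and Itgax 23.0, 28.6, 157 and 491. Scd2, Elovl7, Hacd4 and Acsl4, picked after their values were seen, were also highest on the LKO HFD array. So were others of the 37 genes, among them Fasn, Acaca, Elovl1, Fads1 and Fads2. The part of macrophages in these values was not tested. In whole liver, fewer cells of a type and less RNA per cell cannot be told apart.

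Of 10 adipocyte markers, 10 and 8 were well above background on the chow arrays (F/F and LKO) and 8 and 9 on the HFD arrays, with Plin1 and Ucp1 those below it. Their summed level was 328.5, 301.8, 377.2 and 182.9, most of it from Car3. Without Car3 it was 14.6, 14.3, 34.3 and 19.2, and on F/F HFD most of that came from Cfd. Both sums were highest on F/F HFD, as Mogat1, Pparg and Cidec were, but each rested there mainly on a single gene. The single markers did not share one order. Car3 (90245 and 48402), Cfd (5005 and 377) and Lipe (55.6 and 42.1) were higher on F/F HFD than on LKO HFD, and each was highest there of the 4 arrays. Adipoq, adiponectin (69.6, 32.2, 26.1 and 45.5), and Retn (58.5, 45.8, 12.8 and 27.2) were highest on F/F chow, and Plin1 was well above background only there (13.6). Fabp4 (1462, 1353, 3526 and 4739) and Adrb3 (75.1, 75.5, 169 and 207) were higher on HFD. The part of adipocytes in the values of Mogat1, Pparg and Cidec was not tested. Exocrine pancreas markers were well above background on all 4 arrays, with a summed level of 25.5, 14.9, 13.4 and 49.7. All 10 were higher in LKO on HFD and lower in LKO on chow, and their part in the values of the 37 genes was not tested.

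Clock genes also differed between the HFD arrays. Of the 11 with a value, 9 were lower in LKO than in F/F on HFD, and the median of the 11 was -0.65. For HFD minus chow the median was 0.15 in F/F (9 higher and 2 lower) and -0.29 in LKO (1 higher and 10 lower). Which of the HFD arrays the difference rests on was not tested. Dbp read 6034, 6093, 14397 and 6921, and Arntl (Bmal1), which peaks at the opposite phase, 145, 102, 31.0 and 178. Srebf1, Thrsp, Rgs16 and G6pc were, like Dbp, highest on F/F HFD, and so were other listed genes, among them Elovl2, Elovl5, Gpd1 and Dgat2. The part of the clock in the values of Srebf1 and Thrsp was not tested, and the time of day at which these livers were taken was not given in the sources used here.

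**Figure D5:**
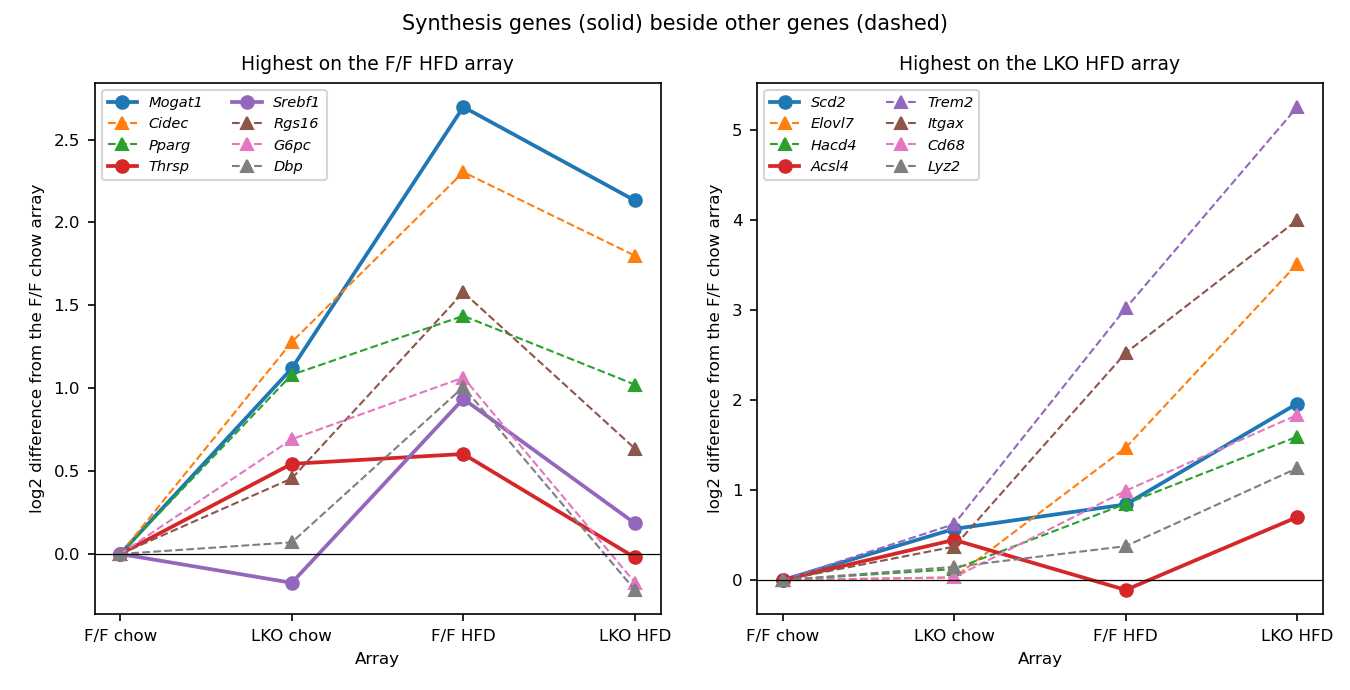
Log2 difference from the F/F chow array on each of the 4 arrays, for genes of the list (solid lines) and other genes (dashed lines). The genes were chosen after their values were seen, for being highest on the F/F HFD array (left, with Mogat1, Srebf1 and Thrsp) or on the LKO HFD array (right, with Scd2 and Acsl4).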

How the data were processed

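Liver RNA of 4 conditions was measured on 4 one-colour Agilent arrays (SurePrint G3 mouse), all on one slide and one scan. The authors deposited spot intensity from Agilent Feature Extraction 12.0.3.1, background-subtracted, with flags for background, saturation and outliers, and a table of values that is this intensity times 1 factor per array (between 2.10 and 2.63). How the factors were made, and a genome build for these values, were not given in the sources used here.

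The 75th percentile of log2 signal over the 59305 spots that are not controls was subtracted on each array (Python 3.11.15, pandas 2.3.3, numpy 2.4.6). Outlier spots were left out, spots of a probe averaged, and the brightest probe stands for a gene. A probe not well above background on 1 array of a pair gives a bound, on both no value. Of 56605 probes, 33767 matched 23462 genes of RefSeq by accession. With 1 array per condition there was no test. Calls are at 2-fold. The signal on every array is given for genes at least 2-fold different in any comparison, the 4 transcription factors and 7 committed or closing steps, other genes of the list by their differences; from each other list up to 4 genes past 2-fold are named, beside Insig1, Insig2, Pnpla3 and Pklr (1 further gene of the rule is not reported here). Values of Acacb, Acsl1, Acsl4, Elovl5, Gpd1, Thrsp and marker genes are shown beyond this rule, chosen after they were seen. The members and all lists were chosen with earlier results of these data known. A noisy copy of 1 array with 200 genes changed 4-fold served as a test on simulated data, and 200 were recovered. The changed genes were bright and the noise was smaller than the spread between probes. It therefore checked the computation and not the differences given here. Alternatives were normexp background correction (limma 3.58.1, R 4.3.3, offset 50), quantile normalization, other percentiles, filters and probe rules, the deposited table and a 1.5-fold threshold. Figures were drawn with matplotlib 3.10.9.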

Additional observations from a re-analysis of the deposited data

Results flagged for a closer look

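In 2 of the 37 genes the genotype difference had opposite signs on chow and HFD with both sizes above the SD between probes. Over all genes with a value the share was 5.09%, close to that of the list. The difference between diets was not tested. For Mogat1, LKO minus F/F was 1.12 on chow and -0.56 on HFD, a change of -1.68, and the second probe moved the same way. For Thrsp it was 0.54 and -0.62, a change of -1.17, also with both probes.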

How the results depend on the processing

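No gene that differed at least 2-fold changed sign under any of the 7 alternative settings of scaling, filter or probe rule. The precision rests on 4 arrays and on signal over background, and the dim Mogat2 depends on how background is removed (1.42 for diet in F/F, 0.59 with normexp). With normexp background correction, 4 of the 8 differences past 2-fold stayed past it. In that setting 0 of the 37 genes were at least 2-fold higher in LKO on chow (Mogat1 gave 0.94), against 0.135% of all genes. The median for HFD minus chow in LKO was 0.11. With quantile normalization, 5 were at least 2-fold higher on HFD in F/F (all genes, 5.76%), and the medians for diet were 0.39 in F/F and 0.16 in LKO. With the deposited table these were 6 (all genes, 6.99%), 0.38 and 0.16. That table moved the median of all genes up by 0.14 in F/F and by 0.15 in LKO. At a 1.5-fold threshold, LKO minus F/F had 5 genes higher on chow and, on HFD, 4 higher beside 3 lower. HFD minus chow then had 10 higher beside 1 lower in F/F and 7 higher beside 2 lower in LKO. The share of all genes past 1.5-fold was not counted, so the counts at that threshold stand without a comparison. The cause was not tested for any of these shifts. No paired analysis was possible because each condition has 1 array, and for the same reason no replicate could be left out.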
